A study of Drosophila melanogaster with 8 samples.

Results

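The temporal transcription factors of neuroblasts are 7 genes in this account: hunchback (hb, FBgn0001180), Krüppel (Kr, FBgn0001325), nubbin (nub, also called pdm1, FBgn0085424), pdm2 (FBgn0004394), castor (cas, FBgn0004878), grainy head (grh, FBgn0259211) and Seven-up (svp, FBgn0003651). They were chosen by name, and each matched 1 of the 17717 features of the count matrix. All 7 are protein coding, and in the RefSeq annotation of the Release 6 assembly nub and pdm2 are neighbours on chromosome arm 2L with only the coding gene Ref2 starting between them. The matrix comes from single-cell RNA sequencing of whole Drosophila melanogaster embryos at stage 17, the last embryonic stage, aged 17 to 18.5 h at 25 °C. The embryos were of 1 group and carried alrm-gal4, which is active in astrocytes, with UAS myr::GFP, together with 25H07-gal4 and UAS-redstinger::NLS. These are reporters, and the labels name no deletion and no treatment. The labels name 8 samples, which are 4 biological replicates run on 2 lanes each.

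Neuroblasts are the stem cells of the fly central nervous system. They divide asymmetrically, and with age they express a series of transcription factors in turn, hb before Kr, then the Pdm proteins nub and pdm2, then cas and then grh, so that neurons born at different times inherit different factors. svp, an orphan nuclear receptor, ends the hb window in that series. By stage 17 most embryonic neuroblasts have stopped dividing or died, and the central nervous system holds mainly their neuronal and glial progeny.

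A unique molecular identifier (UMI) count is the number of distinct tagged RNA molecules counted for a gene in a cell barcode. The matrix held 252748748 UMIs in 73765 barcodes with suffixes from 1 to 8. Suffixes n and n+4 shared 99.6 to 99.7% of the smaller set of barcodes, against 0.226 to 0.422% for any other pairing, so both suffixes of a barcode were summed to 1 cell in 4 library pairs. This gave 38531 cells, of which 27932 passed the limits of 200 or more genes and under 20% mitochondrial UMIs, with a median of 4069 UMIs. No source ties a suffix to a sample, so values are given for each library pair by its suffix number, with no test between groups. Library pair 1 stood apart: it held 764 neurons against 1743 to 2187 in the other pairs, 1050 fat body-like cells against 255 to 416, and 687 muscle-like cells against 152 to 227. Results are therefore given also without library pair 1.

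Cells with a UMI of miranda (mira), an adaptor for asymmetric division, or of deadpan (dpn), a bHLH repressor of neuroblasts, numbered 2170. Of these, 1134 also held a UMI of nSyb, the neuronal synaptobrevin, and 304 a UMI of repo, the glial homeodomain factor. The 931 cells that met only the mira or dpn rule are called progenitors here and make up 3.33% of the kept cells. They were compared with 6745 cells that met only the nSyb rule (neurons), 1031 that met only the repo rule (glia) and 1022 that were epidermis-like by cuticle and chitin genes alone (epidermal cells). The median UMI counts were 3781 in progenitors, 3217 in neurons, 5013 in glia and 6524 in epidermal cells.

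The label neuroblast fitted these progenitors in part. Levels are given as CPM, the UMIs of a gene per 1000000 UMIs of all genes in the cells of a class. wor, a Snail family factor of neuroblasts, stood at 34.3 CPM in progenitors against 1.21 CPM in neurons, and ase, a proneural-type bHLH factor, at 17.8 against 2.19 CPM. However, 483 of the 931 progenitors held only 1 UMI of mira and dpn together, and 370 met the marker rule of another tissue class, among them 107 hemocyte-like and 98 fat body-like cells. The summed level of 10 muscle markers was 5177 CPM in progenitors (3202 to 8554 CPM over the 4 library pairs) and 2880 CPM in neurons, and that of 5 fat body markers was 3764 CPM (2979 to 4070 CPM) against 865 CPM. In the 561 progenitors of no tissue class the muscle markers summed to 534 CPM and the fat body markers to 2171 CPM, against 4206 and 1960 CPM over all kept cells. The neuronal marker elav stood at 271 CPM in progenitors and 841 CPM in neurons. Levels in the progenitors of no tissue class, and in those with both mira and dpn, are given after the levels of the whole class.

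The early factors hb and Kr, both zinc finger proteins, were low in progenitors and highest in neurons. hb stood at 2.38, 0.00, 1.81 and 1.02 CPM in the progenitors of library pairs 1 to 4 and at 6.39, 11.9, 8.28 and 10.9 CPM in the neurons. The ranges did not overlap, and the pooled level was 7.19-fold lower in progenitors (log2 ratio -2.85, -5.67 to -1.35 within library pairs after adding 0.5 UMI). Only 10 of 931 progenitors held a UMI of hb, or 1.07% (95% Clopper-Pearson interval 0.516 to 1.97%), while 296 of 6745 neurons did, or 4.39% (3.91 to 4.90%). In muscle-like cells (median 2840 UMIs), taken as a measure of free RNA, the share was 0.787%, which lies inside the interval of the progenitors, so hb in progenitors was not separated from background. In epidermal cells 0 of 1022 held hb, which, at a floor of 3 cells, allows a share of cells with a UMI of up to 0.294%.

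Kr stood at 8.85, 7.94, 18.1 and 10.5 CPM in the progenitors of the 4 library pairs and at 68.4, 129, 114 and 106 CPM in the neurons. Every neuronal value was above every progenitor value, and the pooled level was 9.67-fold lower in progenitors (log2 ratio -3.27, -3.99 to -2.63 within library pairs). A UMI of Kr was found in 65 progenitors (6.98%, 5.43 to 8.81%) and in 1704 neurons (25.3%, 24.2 to 26.3%), against 1.73% of muscle-like cells, although Kr is also known from embryonic muscle. In library pair 2 the shares were 5.69% of progenitors and 5.26% of muscle-like cells, at 7.94 and 14.3 CPM, so Kr was not separated from background there. In the other library pairs the shares were 5.50 to 11.1% of progenitors and 1.02 to 1.96% of muscle-like cells. Glia, at 3.86 to 12.4 CPM, overlapped the progenitors, and epidermal cells were at 0.492 to 1.54 CPM. hb and Kr thus had the same order of classes, with neurons above progenitors, progenitors and glia not separated, and epidermal cells lowest over all cells of the class.

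The POU domain genes nub and pdm2 followed in the same direction. nub stood at 10.6, 7.47, 10.9 and 6.12 CPM in progenitors and at 60.4, 60.2, 62.2 and 59.5 CPM in neurons, a level 6.87-fold lower in progenitors (log2 ratio -2.78, -3.24 to -2.49). The neuronal level varied little over the library pairs (SD 1.17 CPM, n = 4 library pairs). A UMI of nub was found in 39 progenitors (4.19%, 2.995 to 5.68%), and the share in muscle-like cells, 3.15%, lay inside that interval. Glia at 9.26 to 31.5 CPM and epidermal cells at 1.93 to 21.7 CPM overlapped the progenitors.

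pdm2 stood at 1.70, 3.27, 1.45 and 1.02 CPM in progenitors and at 10.5, 11.3, 12.3 and 11.5 CPM in neurons. This was 6.53-fold lower in progenitors (log2 ratio -2.71, -3.28 to -1.69), with no overlap, though the size of the ratio differed with depth (given below). It was detected in 16 progenitors (1.72%, 0.985 to 2.78%), in 281 neurons (4.17%) and in 0.472% of muscle-like cells. Glia reached 0.974 to 7.10 CPM, which overlapped the progenitors, and epidermal cells 0 to 0.771 CPM, which did not.

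cas, a zinc finger factor of late neuroblasts, had the opposite order. It stood at 46.6, 110, 61.6 and 79.9 CPM in the progenitors of the 4 library pairs and at 4.53, 6.23, 6.32 and 6.09 CPM in the neurons. The lowest progenitor value was above the highest neuronal value, and the pooled level was 12.0-fold higher in progenitors (log2 ratio 3.58, 3.28 to 4.14 within library pairs). A UMI of cas was present in 153 progenitors (16.4%, 14.1 to 19.0%), in 101 neurons (1.50%, 1.22 to 1.82%), in 14 glia (1.36%) and in 7 epidermal cells (0.685%), against 0.551% of muscle-like cells. The cells that held cas held a median of 3 UMIs, and the highest count in a progenitor was 51 UMIs, whereas 43 of the 65 Kr-positive progenitors held a single UMI of Kr. After thinning each cell to 1000 UMIs the share with cas was 11.3% in progenitors and 0.481% in neurons, so the shares differed at equal depth too. Neurons and glia (1.46 to 5.52 CPM) overlapped, and epidermal cells (0 to 1.16 CPM) were lowest.

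grh, the last factor of the series and also a regulator of cuticle and barrier genes in epithelia, was shared between progenitors and epidermal cells. Its level was 104, 181, 116 and 136 CPM in progenitors, 45.7, 30.8, 56.3 and 40.8 CPM in neurons and 32.0, 11.4, 15.1 and 19.9 CPM in glia. Progenitors lay above both in all 4 library pairs, by 3.11-fold over neurons (log2 ratio 1.64, 1.05 to 2.55) and by 7.07-fold over glia (log2 ratio 2.82, 1.69 to 3.96). The size of the ratio over neurons varied with the processing, from 0.89 to 4.34 over 20 alternatives. The 29 epidermis markers summed to 3202 CPM in progenitors (1258 to 6594 CPM), 532 CPM in those of no tissue class and 1846 CPM in neurons. The 5 trachea markers summed to 689, 170 and 455 CPM in that order. The part of this in the grh ratio over neurons was not tested. Epidermal cells stood at 268, 124, 112 and 114 CPM, overlapping the progenitors, and the library pair at 268 CPM was library pair 1. The log2 ratio of progenitors over epidermal cells was -0.14 with all library pairs and 0.27 without library pair 1, and it was 0.59 in progenitors of no tissue class and 1.98 in those with both mira and dpn, so its sign rested on that pair and on the class rule. A UMI of grh was present in 334 progenitors (35.9%, 32.8 to 39.1%), 457 neurons (6.78%), 38 glia (3.69%) and 594 epidermal cells (58.1%, 55.0 to 61.2%), against 4.80% of muscle-like cells. After thinning to 1000 UMIs, however, the shares of progenitors (20.9%) and epidermal cells (17.3%) changed places.

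svp, the COUP-TF type nuclear receptor, was higher in glia than in the whole class of progenitors. It stood at 146, 104, 136 and 139 CPM in progenitors, 51.1, 49.4, 63.2 and 63.9 CPM in neurons, 235, 188, 191 and 219 CPM in glia and 8.10, 6.37, 3.05 and 2.22 CPM in epidermal cells. No 2 classes overlapped, giving the order glia, progenitors, neurons and epidermal cells. The level in progenitors was 2.31-fold that in neurons (log2 ratio 1.21, 1.08 to 1.51) and 1.54-fold lower than in glia (log2 ratio -0.63, -0.85 to -0.49). svp was also high in fat body-like cells (175 CPM), whose 5 markers summed to 3764 CPM in progenitors and 865 CPM in neurons. The part of this in the ratio over neurons was not tested. The order against glia turned with the class rule: progenitors with both mira and dpn stood at 249, 232, 441 and 599 CPM (log2 ratio over glia 0.81, 0.09 to 1.46), and progenitors of no tissue class, at 136 to 208 CPM, overlapped glia (-0.29, -0.53 to 0.12). A UMI of svp was present in 284 progenitors (30.5%, 27.6 to 33.6%), 848 neurons (12.6%), 484 glia (46.9%, 43.9 to 50.0%) and 29 epidermal cells (2.84%), against 3.78% of muscle-like cells.

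**Figure D1:**
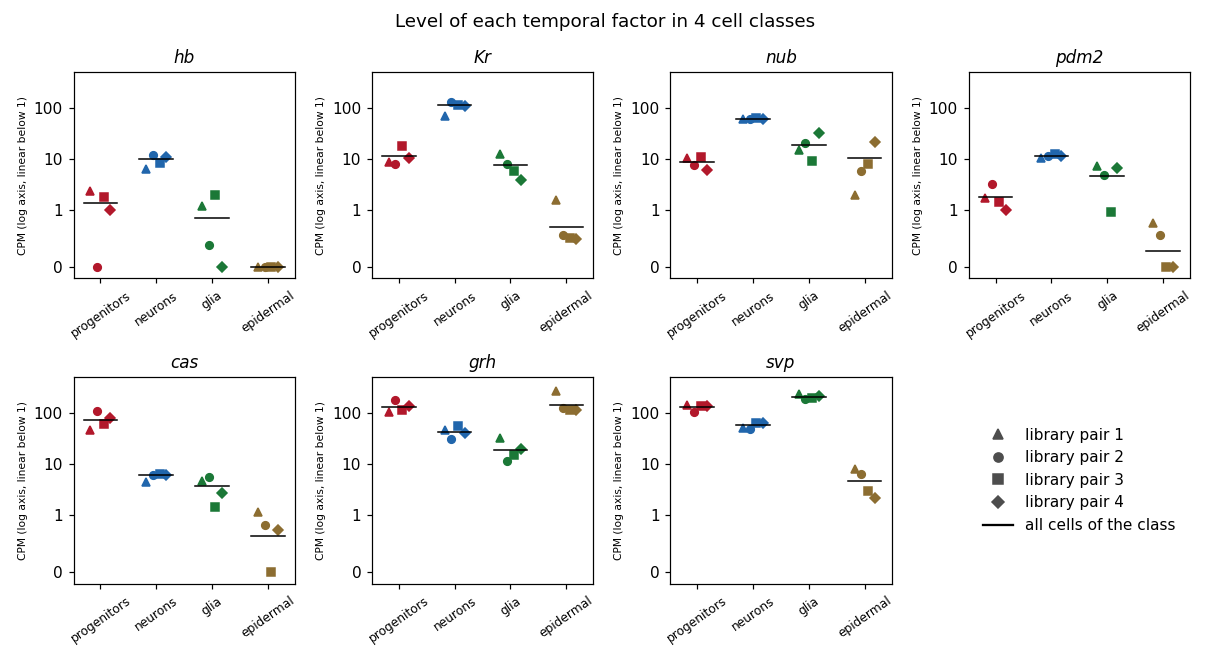
Level of the 7 genes in CPM (vertical axis, logarithmic above 1 and linear below) in progenitors, neurons, glia and epidermal cells. Points are the 4 library pairs and the line is the level over all cells of the class; hb, Kr, nub and pdm2 lie higher in neurons than in progenitors in all 4 library pairs, and cas, grh and svp lie lower.

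Counted by a 2-fold limit on the pooled level, 3 of the 7 genes (cas, grh and svp) were higher in progenitors than in neurons and 4 (hb, Kr, nub and pdm2) were lower. Over the 9310 genes with 100 or more UMIs in the 2 classes together, 15.1% were higher and 25.6% lower by that limit, and the median log2 ratio was -0.10. All 7 kept their side in each library pair, and without library pair 1 the log2 ratios ran from 1.14 (svp) to 3.72 (cas) for the higher genes and from -3.36 (hb) to -2.70 (pdm2) for the lower genes. Against glia, 2 of the 5 members with enough UMIs (cas and grh) were higher and 1 (nub, log2 ratio -1.10, -2.34 to 0.22 within library pairs) was lower, beside 22.4% and 13.8% of 7268 genes. The nub ratio to glia had the other sign in library pair 3, and it fell short of 2-fold without library pair 2 (-0.99) or 4 (-0.64). Kr stood at a log2 ratio of 0.63 over glia with all library pairs and of 1.04 without library pair 1. Against epidermal cells, 3 of 5 (Kr, cas and svp) were higher and 0 lower, beside 59.9% and 12.1% of 7137 genes, where the median log2 ratio was 1.46, so that a higher value there was common to most genes. hb and pdm2 had under 100 UMIs in these classes. With the 0 UMIs of hb in epidermal cells set to a floor of 3 UMIs over the class, hb was 6.59-fold higher in progenitors than in epidermal cells. This figure takes the 15 UMIs of hb in progenitors as exact and is not a lower limit. In library pair 2, where progenitors held 0 UMIs of hb, the log2 ratio was 0.75 after adding 0.5 UMI. hb in progenitors was also not separated from background above.

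The shares of cas and grh differed with how much mira and dpn a cell held. Progenitors were split into 483 cells with 1 UMI of mira and dpn together (median 4813 UMIs in all), 182 cells with 2 or 3 (median 2761) and 266 cells with 4 or more (median 3037). Since the lanes were summed, 2 of these UMIs may be 1 molecule. The share with a UMI of grh was 18.0% (14.7 to 21.7%), 41.8% (34.5 to 49.3%) and 64.3% (58.2 to 70.0%) in that order. The share with cas was 7.87% (5.63 to 10.6%), 18.7% (13.3 to 25.1%) and 30.5% (25.0 to 36.4%). The intervals of the lowest and highest classes did not overlap for either gene, while the cells with most mira and dpn were not the deepest. For svp the shares were 28.4%, 30.2% and 34.6% with overlapping intervals, although after thinning to 1000 UMIs they were 7.73%, 12.4% and 22.7%. nub had shares of 3.73%, 4.40% and 4.89%, in the same order but with overlapping intervals. hb (1.24%, 1.10% and 0.752%), Kr (6.63%, 8.79% and 6.39%) and pdm2 (1.86%, 1.10% and 1.88%) were not in that order. The share of cells with a UMI of wor, ase or insc was 19.0%, 37.4% and 65.8% across the same classes, and the share in no tissue class was 43.7%, 67.0% and 85.7%. The share with elav was 49.5%, 65.4% and 83.1%, at 144, 260 and 889 CPM, so a neuronal marker moved with cas and grh as well, and its part in their shares was not tested.

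**Figure D2:**
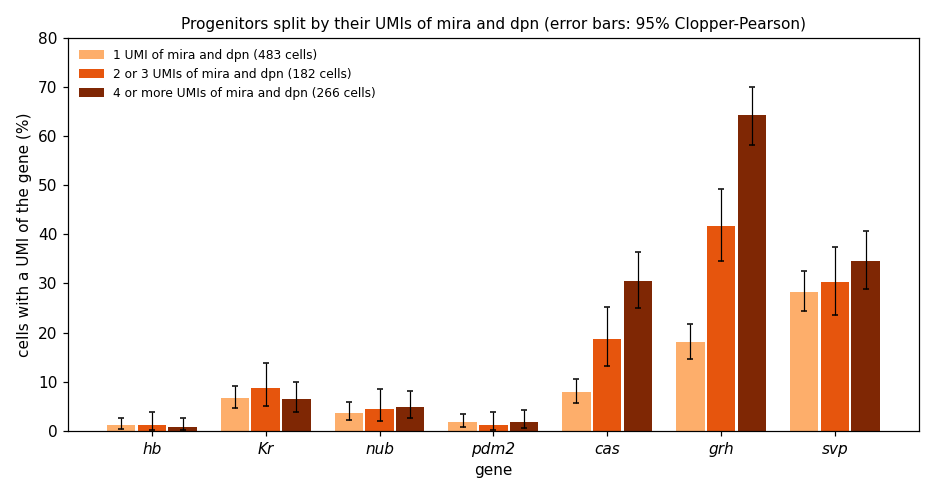
Percentage of progenitors with a UMI of each gene (vertical axis), split by the UMIs of mira and dpn that the cell held; error bars are 95% Clopper-Pearson intervals over cells and cover counting error only. grh goes from 18.0 to 64.3% and cas from 7.87 to 30.5% between the classes with fewest and most mira and dpn, and the other genes have overlapping intervals.

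In the 235 progenitors with both mira and dpn, cas stood at 357 CPM, grh at 568 CPM and svp at 359 CPM, against 33.4, 79.1 and 106 CPM in the 603 progenitors with mira alone. All 3 were higher with both genes in every library pair, with log2 ratios of 3.42 for cas (1.96 to 4.70), 2.84 for grh (2.68 to 3.14) and 1.76 for svp (0.91 to 2.78). The cells with both genes were shallower, with a median of 2885 UMIs against 4535 UMIs with mira alone. The CPM of cas, grh and svp was lowest in the deepest progenitors (next paragraph), and the part of depth in these ratios was not tested. Kr was at 16.9 against 11.1 CPM (log2 ratio 0.60), also higher with both genes in every library pair, on 19 and 97 UMIs. hb was higher in every library pair after adding 0.5 UMI, but on 4 and 5 UMIs, and pdm2 had 1 and 17 UMIs. nub was at 9.77 against 8.82 CPM, and its ratio took both signs over the library pairs. Between progenitors with and without wor, ase or insc, cas was at 104 against 51.4 CPM and grh at 188 against 94.5 CPM, both higher in all 4 library pairs, and svp was at 149 against 123 CPM, higher in 3 of 4. In the 561 progenitors of no tissue class, cas was at 148 CPM, grh at 217 CPM and svp at 168 CPM, against 13.5, 65.1 and 106 CPM in the 370 progenitors that met a tissue rule. The former were again shallower, with a median of 2614 against 6418 UMIs. The order against neurons was the same in the progenitors of no tissue class, with log2 ratios of 4.63 for cas, 2.36 for grh and 1.54 for svp and of -2.29 (pdm2) to -3.23 (hb) for the other 4 genes.

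The levels of cas and grh in progenitors differed with depth. Progenitors were ordered by depth and cut into 4 equal groups. From the shallowest group (233 cells, median 1318 UMIs) to the deepest (232 cells, median 20438 UMIs), grh stood at 797, 466, 228 and 68.2 CPM, and cas at 331, 397, 189 and 21.3 CPM. cas was thus highest in the second group and lowest in the deepest. The share of cells with grh was 40.8% in the shallowest group and 33.2% in the deepest, and that with cas was 15.5%, 24.0%, 16.7% and 9.48%. svp went the other way as a share, from 19.7% to 53.4%, while its level was 436 and 103 CPM. In neurons, cut the same way, grh had the opposite order, at 12.9 CPM (1.66% of cells) in the shallowest group and 56.0 CPM (17.9%) in the deepest, and Kr was at 188 and 86.9 CPM. The grh levels of progenitors and neurons were therefore far apart in the shallowest group and closest in the deepest. hb, Kr, nub and pdm2 were lower in progenitors in every group, but by different amounts. pdm2 was at 13.5 against 18.4 CPM in the shallowest groups and at 0.584 against 9.12 CPM in the deepest. nub was at 27.0 against 85.4 CPM and at 7.47 against 51.9 CPM. The part of depth in the pooled ratios of these genes was not tested.

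The 1134 cells with mira or dpn and also nSyb gave another picture of the early genes. These cells were deep, with a median of 12200 UMIs, and the part of doublets and of free RNA in them was not tested. They held 71.0% of all cas UMIs of the kept cells, 33.3% of those of Kr and 22.5% of those of hb, against 14.8%, 1.28% and 1.84% in the progenitors. Their Kr level was 150 CPM (87.1 to 175 CPM), which was 13.1-fold that in progenitors and 1.35-fold that in neurons. nub (64.4 CPM) and pdm2 (12.3 CPM) were 1.06-fold and 1.07-fold that in neurons, and cas (174 CPM, 127 to 219 CPM) was 28.9-fold that in neurons. grh (118 CPM) and svp (112 CPM) were 1.11-fold and 1.19-fold lower than in progenitors, with ranges that overlapped. The share of mira or dpn cells with nSyb was 21.5% in the shallowest of 4 groups by depth and 71.2% in the deepest. With all 2170 mira or dpn cells kept as progenitors, and the overlapping cells also in the other classes, the count higher than in neurons by 2-fold became 1 (cas, log2 ratio 1.44) and the count lower became 0, with Kr at -0.15.

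Across 14 tissue classes assigned by marker lists, and the cells in none, each gene had its own pattern. These classes kept cells that met any other rule, so 655 of the 5565 neuron-like cells held mira or dpn and 391 of the 1319 glia-like cells held nSyb, and their levels are not those of the neurons and glia above. hb was highest in neuron-like cells at 14.6 CPM (10.5 to 16.4 CPM), overlapping glia-like cells at 8.83 CPM. Kr was highest in neuron-like cells at 183 CPM (174 to 194 CPM), above every other class without overlap, with muscle precursor-like cells next at 54.2 CPM (34.3 to 95.9 CPM). pdm2 was highest in neuron-like cells at 16.2 CPM. nub in midgut-like cells (85.5 CPM, 55.4 to 113 CPM) overlapped neuron-like cells (86.7 CPM, 84.9 to 88.1 CPM), and 57.2% of the 442 midgut-like cells held a UMI of it. The midgut-like cells were also the deeper class, with a median of 16365 UMIs against 3201.

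Among these tissue classes, grh and svp were highest in classes outside the nervous system, while for cas this rested on 1 small class of deep cells. The pooled levels of cas, grh and svp in progenitors with both mira and dpn, given above, were higher than in the leading tissue class. cas was highest in the 77 germline-like cells at 176 CPM (70.7 to 263 CPM), of which 22 held it. They had a median of 17539 UMIs, and their range overlapped that of neuron-like cells at 52.1 CPM (33.3 to 74.7 CPM). The 5 germline markers also summed to 179 CPM in epidermal cells against 50.1 CPM over all kept cells, and the identity of the germline-like cells was not tested. Malpighian tubule-like cells, at 11.9 CPM of cas, were the next tissue class outside the nervous system. grh was highest in trachea-like cells at 282 CPM (202 to 336 CPM), where 65.1% of 636 cells held it, then in germline-like cells at 193 CPM and in epidermis-like cells at 133 CPM. Cells of no class (88.7 CPM, 82.3 to 97.4 CPM) lay above neuron-like cells (42.4 CPM, 36.9 to 62.2 CPM) without overlap, and fat body-like cells were lowest at 2.55 CPM. svp was highest in fat body-like cells at 175 CPM (172 to 182 CPM), where 68.4% of 2065 cells held it. Glia-like cells followed at 130 CPM (104 to 216 CPM), overlapping fat body-like cells. The glia that met only the repo rule stood above fat body-like cells in svp. Oenocyte-like cells were at 125 CPM (115 to 151 CPM), and Malpighian tubule-like cells were at 95.2 CPM. Epidermis-like cells (5.09 CPM), hemocyte-like cells (5.47 CPM) and midgut-like cells (3.19 CPM) were at the low end for svp.

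**Figure D3:**
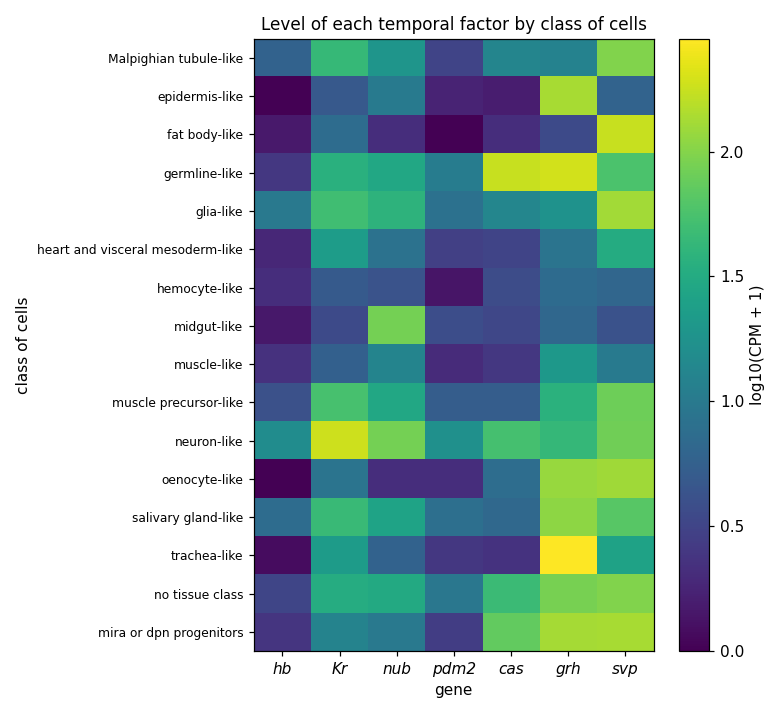
Level of each gene (columns) in 14 marker-defined classes, in cells of no class and in mira or dpn progenitors (rows), as log10 of CPM plus 1. Kr is highest in neuron-like cells (183 CPM), grh in trachea-like cells (282 CPM), svp in fat body-like cells (175 CPM), and cas in germline-like cells (176 CPM).

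At the level of the single cell, 631 of 931 progenitors (67.8%, 64.7 to 70.8%) held a UMI of 1 or more of the 7 genes and 239 (25.7%, 22.9 to 28.6%) of 2 or more. The first share was 66.0, 65.9, 68.2 and 71.6% in library pairs 1 to 4. It was 46.5% in neurons, 54.9% in glia, 60.5% in epidermal cells and 13.1% in muscle-like cells. The members behind these shares differed between classes. Progenitors held most often svp alone (143 cells), grh alone (142), grh with svp (97), cas alone (61) and cas with grh (60). The place of svp alone depended on the class rule. In the 561 progenitors of no tissue class it was found in 56 cells, behind grh alone (101) and grh with svp (80). In the 235 with both mira and dpn it was found in 13 cells, and grh with svp (60) and grh alone (54) led. Neurons held most often Kr alone (952 cells), svp alone (389) and nub alone (333). Glia held svp alone in 419 of 1031 cells, and epidermal cells held grh alone in 522 of 1022 cells.

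Co-detection of cas, grh and svp in progenitors was compared with the number expected from the separate shares within 5 depth bins of the class. cas and svp were found together in 19 cells against 40.6 expected, a ratio of 0.47, and the ratio was 0.69, 0.22, 0.51 and 0.46 in the 4 library pairs. grh and svp were found together in 112 cells against 98.5 expected, a ratio of 1.14 (1.03 to 1.31), and cas and grh in 77 cells against 55.8, a ratio of 1.38 (1.17 to 1.58). So the cells with cas held svp in 12.4% of cases and grh in 50.3%. The first ratio lay below 1 in all 4 library pairs and the other ratios above 1 in all 4. Since cells of other tissues were mixed into the class, the ratios were also taken in a narrower class. In progenitors with both mira and dpn the ratio was 0.54 (0.24 to 0.71) for cas and svp and 1.16 (1.02 to 1.23) for grh and svp, but 0.87 (0.74 to 0.97) for cas and grh, which therefore did not keep its side.

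In neurons the same genes gave other ratios. cas and svp were found together in 25 neurons against 18.8 expected (1.33, 1.11 to 1.56), and grh and svp in 101 against 94.99 expected (1.06, 0.91 to 1.11). With each cell thinned to 1000 UMIs and no depth bins, a choice made after the data were seen, cas and svp gave 0.30 in progenitors and 0.83 in neurons, and grh and svp gave 2.02 in progenitors. The pair of neighbouring genes nub and pdm2 was found together in 224 neurons against 53.0 expected, a ratio of 4.23 (3.83 to 4.86), so that 79.7% of the pdm2-positive neurons also held nub. In glia this pair was found in 16 cells against 1.24 expected, and in progenitors in 7 cells against 0.828. hb and Kr (136 neurons, ratio 1.52, 1.34 to 1.74), hb and nub (89 neurons, 1.67, 1.63 to 1.85) and Kr and nub (377 neurons, 1.28, 1.20 to 1.47) were above 1 in neurons in all 4 library pairs. nub and grh (77 neurons, 0.75, 0.54 to 0.90) and Kr and grh (152 neurons, 0.95, 0.91 to 0.99) were below 1 in all 4. These sides are those within depth bins. Thinned to 1000 UMIs, hb with Kr and hb with nub stayed above 1 in all 4. Kr and nub took the other side in library pair 3 (0.97), as did Kr and grh in library pair 3 (1.12) and nub and grh in library pair 1 (1.02).

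**Figure D4:**
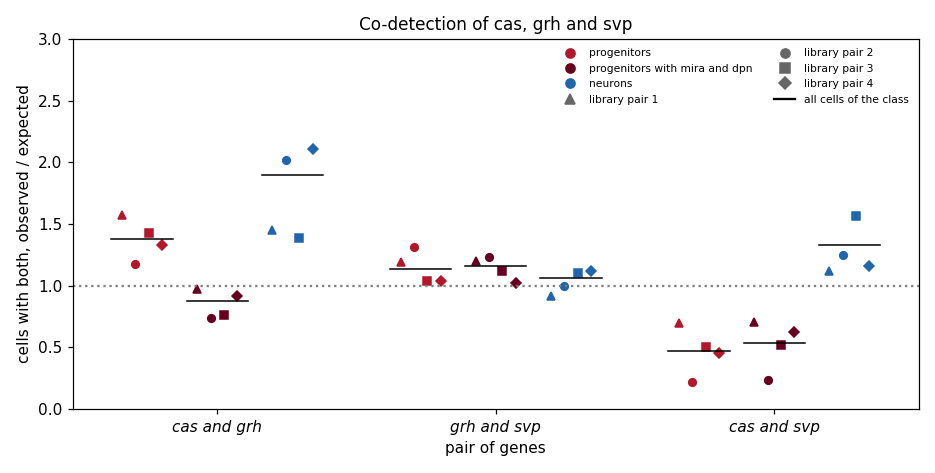
Cells with both genes of a pair over the number expected within depth bins (vertical axis; the dotted line at 1 is the expectation), in progenitors, progenitors with mira and dpn, and neurons. Points are the 4 library pairs and lines are all cells of the class; cas and svp lie below 1 in every library pair of both progenitor classes (0.47 and 0.54 over all cells) and above 1 in neurons (1.33).

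Other genes of the same programme were taken from 3 lists. Of 20 further neuroblast genes, 9 were higher in progenitors than in neurons by 2-fold or more and 4 lower, with a median log2 ratio of 0.29. The higher ones were led by wor (log2 ratio 4.81, 4.25 to 5.68 within library pairs), the Notch targets E(spl)mgamma-HLH (4.19, 3.46 to 4.82) and E(spl)m8-HLH (3.45), the nuclear receptor gene tll (3.29), ase (3.02), klu (2.78), sna (1.99) and pon (1.93). The lower ones included pros (-1.21), the factor that mira carries into the daughter cell, and aPKC (-2.33), a kinase of the apical complex. Of 10 division genes, 9 were higher and 0 lower, with a median of 2.68. CycE, the cyclin of S phase entry, stood at 66.6 CPM against 5.09 CPM (log2 ratio 3.71, 2.63 to 5.15), polo at 17.0 against 1.90 CPM (3.15) and aurB at 25.4 against 3.33 CPM (2.93). The cyclins CycA (2.70) and CycB (2.46) and the replication genes Mcm5 (2.70), Mcm2 (2.67) and PCNA (1.80) were also higher by this log2 ratio. The remaining higher gene of the list was dap, at 158 against 46.7 CPM (1.76). stg (0.95) did not reach the limit.

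Of 18 other temporal genes, mamo had too few UMIs, 2 of the other 17 were higher and 8 lower, with a median log2 ratio of -0.81. The 2 higher genes were Syp, an RNA-binding protein of late neuroblasts in larvae (18.7 against 4.52 CPM, log2 ratio 2.05, 1.00 to 3.22), and lin-28 (190 against 74.0 CPM, 1.36, 0.78 to 1.80). Imp, the RNA-binding protein of early neuroblasts in larvae, was at 1090 against 2235 CPM (-1.04, -1.20 to -0.68). The largest differences were those of br (24.6 against 432 CPM, -4.13), dan (2.23 against 25.0 CPM, -3.46) and danr (3.25 against 26.7 CPM, -3.02), and ab (-1.63), Hr39 (-1.17), hth (-1.09) and bab2 (-1.01) were also lower. These counts stand beside the 15.1% and 25.6% of all tested genes given above.

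**Figure D5:**
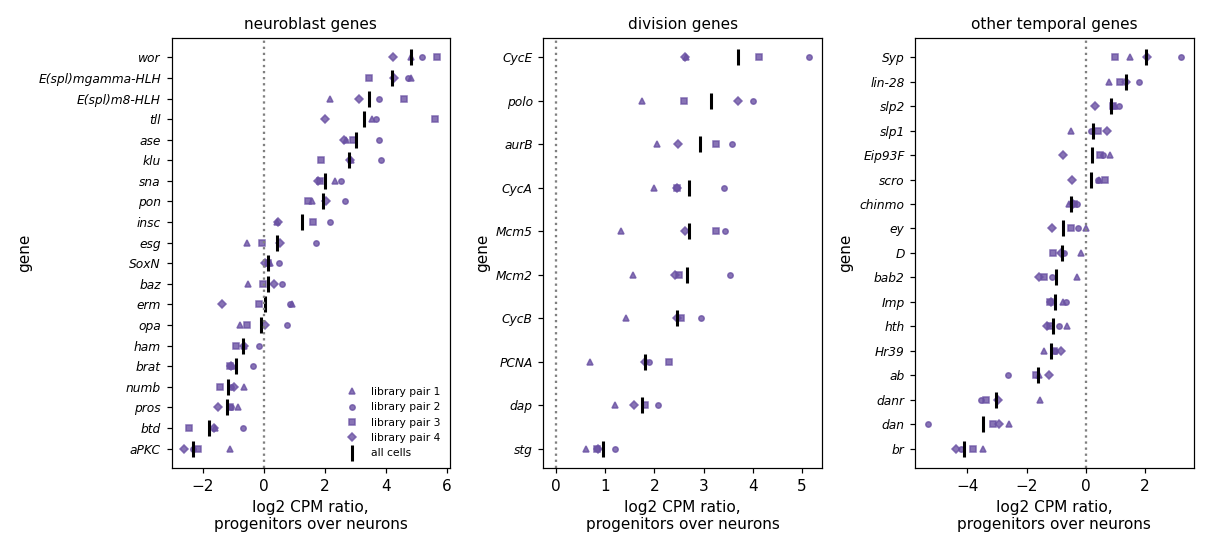
Log2 ratio of CPM in progenitors over neurons (horizontal axis) for neuroblast, division and other temporal genes; points are the 4 library pairs after adding 0.5 UMI and black marks are all cells. The division genes all lie above 0 in every library pair, from stg at 0.95 to CycE at 3.71, and br at -4.13 is the lowest of the temporal genes.

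Progenitors with a given factor were then set beside those without it. Those with grh held dpn in 55.7% of cells against 23.8% without grh, and wor in 35.6% against 12.1%, at median depths of 3294 and 4002 UMIs. elav and pros moved with grh too, with elav in 84.1% against 49.9% of cells (606 against 156 CPM) and pros in 46.7% against 21.9%. Those with cas held dpn in 54.9% against 31.4% and ase in 22.9% against 11.8%, at 3194 and 4001 UMIs, and elav in 79.7% against 58.7% (897 against 218 CPM). For svp the shares were nearly level, with dpn at 38.0% against 34.0% and wor at 20.8% against 20.4%, and the svp-positive cells were deeper (6374 against 3194 UMIs). Kr-positive progenitors held dpn in 29.2% against 35.7% at 8514 against 3678 UMIs. These are descriptions of cells that share libraries and differ in depth.

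The genes with the largest ratio beside each factor came from few cells. Beside cas they were the cuticle protein gene Cpr64Ad (6044 UMIs in 18 of 153 cells), Blimp-1 (59 UMIs in 18 cells) and dmrt99B (48 UMIs in 21 cells, log2 ratio 4.75). Beside grh they were the cuticle protein gene Cpr100A (790 UMIs in 10 of 334 cells and 0 in the 597 others), CG34461 (4366 UMIs in 11 cells) and y, a pigment gene (236 UMIs in 10 cells). Beside svp they were Adgf-D (120 UMIs in 38 of 284 cells and 0 in the 647 others), CG13877 (107 UMIs in 44 cells) and Dhc93AB, an axonemal dynein gene (68 UMIs in 34 cells). mex1, a midgut gene, led beside nub (191 UMIs in 14 of 39 cells, log2 ratio 4.81), followed by CG9568 (4.12) and CG9084 (3.96). Spn43Ab (2.64), yellow-d (2.36) and VepD (2.27) led beside Kr, CG8149 (1.84), La (1.75) and cib (1.74) beside pdm2, and Unr (0.88), CG2852 (0.83) and eEF5 (0.50) beside hb, which rested on 10 cells.

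By their pattern over the 14 tissue classes and the progenitors (Pearson correlation of log2(CPM + 10), n = 15 classes that share libraries and some cells), the genes most like each member were CG30419 (0.980) and CG13108 (0.979) for hb, NAT1 (0.970) and spas (0.963) for Kr, and Lim3 (0.909) and Lerp (0.899) for nub. For pdm2 they were CG13604 (0.975) and CG11638 (0.962), and for cas CG7372 (0.977) and CG4570 (0.957). For grh they were yellow-b (0.952) and ovo (0.941), the latter a factor of germline and epidermis, and for svp LRP1 (0.891) and CG4297 (0.888).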

How the data were processed

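The authors counted UMIs per gene and barcode with Cell Ranger 3.1.0 (per the labels; BDGP6.22 genome per the methods), then merged the 8 libraries with its aggregate function. Counts in the deposited matrix are whole numbers, and the cell filter of the study had not been applied. Suffixes 1 to 4 and 5 to 8 were taken, from their shared barcodes, as 2 lanes of the same library pairs. A molecule may thus be counted in both lanes, and no interval was put on summed UMIs. Suffix totals were 26261446 to 36130722 UMIs. Cells were kept with 200 or more genes and under 20% mitochondrial UMIs, while the methods used 50 to 3000 genes and under 10%. No doublet caller was run. CPM is a gene's UMIs per 1000000 UMIs of the class. A tissue class needed at least 3 times the embryo mean of its marker list and 2 markers. Epidermal cells are those of the epidermis-like class that met no mira, dpn, nSyb or repo rule. Thinned shares are expected shares after drawing 1000 UMIs per cell, without cells under 1000. Intervals are 95% Clopper-Pearson and cover counting error only. An exact paired test over 4 library pairs cannot go below p = 0.125, so none is given. The named genes are the members and the listed genes past a pooled 2-fold limit and on that side of 0 in all 4 library pairs (at most 8 per list). Also named are the 3 leading genes beside each member, with 30 or more UMIs in 10 or more cells that held the member. The 2 most alike in pattern among genes of 100 or more UMIs complete them. pon, pros, stg, dap, Imp, bab2 and mamo were added after their values were seen. The members and lists were chosen with earlier results of these data known. Python 3.11.15, numpy 2.4.6, scipy 1.17.1 and pandas 2.3.3 were used, and the ratio and co-detection steps were tested on simulated data. Alternatives changed the cell filter, the lanes, the class rules, the CPM scale, the deepest 8% of cells, the thinning depth and the number of bins, and left out each library pair in turn.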

Additional observations from a re-analysis of the deposited data

Results flagged for a closer look

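Of 27 sets of 4 library pairs compared within a class, 3 had a library pair far from the others by Dixon's gap, of which chance flags about 1 in 20, and all 3 were library pair 1. grh in epidermal cells stood at 268 CPM in library pair 1 against 112 to 124 CPM in the other 3. Kr in epidermal cells stood at 1.54 CPM in library pair 1, a level of few UMIs, against 0.492 to 0.554 CPM. cas in neurons stood at 4.53 CPM in library pair 1 against 6.09 to 6.32 CPM. The same library pair held fewer neurons and more fat body-like and muscle-like cells than the others, and the part of this in the 3 values was not tested.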

How the results depend on the processing

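The count of members higher than in neurons by 2-fold was 3 and that of lower members 4 in every alternative except 2, in which cells that meet a second rule were kept or taken as the progenitors. Over 20 alternatives cas, grh and svp stayed above neurons, with log2 ratios of 1.44 to 5.89, 0.89 to 4.34 and 0.70 to 2.64, and hb stayed below (-3.87 to -0.23). With cells of more than 1 rule kept in each class, 1 was higher and 0 were lower. With the mira or dpn cells that hold nSyb taken as the progenitors (chosen after seeing the data), 2 were higher and 0 were lower, and the log2 ratios over neurons turned to 0.43 for Kr, 0.089 for nub and 0.10 for pdm2, and those over glia to 1.77 for nub and 1.39 for pdm2. As a mean over cells of each cell's CPM, pdm2 over glia turned to 0.32.

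The co-detection ratio of cas and grh in progenitors, 1.38, was 1.04 with 2 or more UMIs of the rule genes, 1.05 with wor, ase or insc required, 1.14 in progenitors of no tissue class, and turned to 0.87 with mira and dpn both required and 0.97 with dpn as the only rule gene. That of cas and svp, 0.47, was 0.92 with cells of more than 1 rule kept and 0.98 in the cells with nSyb, and stayed below 1 in all 22 alternatives (0.30 to 0.98). That of grh and svp, 1.14, was 1.28 with wor, ase or insc required, 1.30 without the 8% deepest cells and 2.02 thinned to 1000 UMIs. In neurons, grh and svp turned to 0.96 under the limits of the methods and 0.95 with 10 depth bins, and cas and svp to 0.83 when thinned. The cause of these shifts was not tested. Without each library pair in turn the ratios in progenitors were 1.31 to 1.48 for cas and grh, 0.38 to 0.55 for cas and svp and 1.10 to 1.17 for grh and svp. No paired analysis was possible because no result comes from a test between samples, which form 1 group; cell classes were compared within each library pair instead. The depth limits hb and pdm2, with 15 and 19 UMIs in all progenitors.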
